A study of Mus musculus with 6 samples.

Results

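The non-endocrine pancreatic epithelium of the mouse embryo was examined by single-cell chromatin accessibility at embryonic day 13.5 (E13.5). It was taken as 1716 of the 2916 cells in a wild-type library (WT) and an enhancer-deletion library (KO). A cell belonged to it when at least 2000 genes had a score above 0 and when the summed score of 4 red-cell genes (Slc4a1, Gypc, Tal1 and Lyl1) was under 15. From the cells left, the top 15% by the summed score of 5 endocrine genes (Neurod1, Myt1, Cryba2, Ptprn2 and Pax4) were taken out. The rule kept 1448 of the 2314 cells in WT (62.6%, 95% exact binomial interval 60.6 to 64.6%) and 268 of the 602 in KO (44.5%, 40.5 to 48.6%). The intervals cover counting error only.

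WT embryos were Ptf1a+/+ and KO embryos Ptf1aenh-delta/enh-delta, homozygous for the deletion of an enhancer of Ptf1a, both on C57BL/6. Each E13.5 library came from nuclei of pancreas pooled from 6 embryos, and the deletion is present in every cell type of a KO embryo. The study also holds a WT and a KO accessibility library of dissected E10.5 pancreatic progenitor tissue (5 to 9 embryos per dataset), which is used here for the same genes at the earlier age. Each genotype had 1 library at each age, so no difference below has a replicate check, no test was possible, and each comparison is between 2 libraries. The cell names of the E13.5 libraries carry different months for WT and KO, and with 1 library each the month cannot be told apart from the genotype.

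The pancreatic epithelium at this age branches into tips, whose cells turn to the acinar fate that makes digestive enzymes, and a trunk, whose cells give ducts and, through Neurog3, hormone-producing endocrine cells. Ptf1a is a basic helix-loop-helix factor that pairs with an E protein (Tcf3, Tcf4 or Tcf12) and with Rbpj, replaced by Rbpjl in acinar cells, to form the PTF1 complex. The complex binds an E-box next to a TC-box in the promoters of acinar enzyme genes, and Ptf1a is also needed for the pancreatic rather than the intestinal fate of the early bud.

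The values are gene scores: an accessibility signal summed over each gene by the authors and scaled so that the 8269 genes of a cell add up to 10000. A score is therefore a share of the cell's signal, not RNA. KO cells of the epithelium had a median of 5762 genes above 0 (10th to 90th percentile 3095 to 7550), against 4002 in WT (2414 to 6036). All KO and WT means below were therefore weighted so that both libraries have one spread over 10 bins of genes above 0, unless given as unweighted. Per bin there were 7 to 92 KO cells, under 20 in the 7 lowest bins. The bins are parts of the same 2 libraries and not replicates. The share of all genes that differ in one direction in 10 of 10 bins is not given here. After weighting, 8229 genes were compared, each with a score above 0 in 10% or more of the WT or the KO cells. Their log2 ratios of KO to WT mean score had a median of 0.00, and 95% of them lay between -0.49 and 0.49.

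The 4 markers of the label scored higher in the epithelium than in the erythroid-high cells, in each library. The mean score of Sox9, a progenitor and trunk factor, was 16.4 in WT and 11.3 in KO cells without weights, against 2.33 and 0.53 in the erythroid-high cells that were left out. Rbpjl, the acinar partner of Ptf1a, had 1.19 and 0.78, Sdc4, a cell-surface proteoglycan, 1.64 and 1.63, and Hhex, a foregut homeobox factor, 2.48 and 2.32. In the erythroid-high cells these 3 markers lay between 0.06 and 0.61. The endocrine-high cells came closer, with Sox9 at 13.2 in WT and 7.56 in KO without weights. Rbpjl was there at 0.75 and 0.19, Sdc4 at 0.70 and 0.96, and Hhex at 1.55 and 1.24. In the cells left out for under 2000 genes above 0, Sox9 was at 16.5 in WT and 8.31 in KO. Summed over 11 epithelial markers the weighted mean was 41.7 in WT and 31.0 in KO, of which Sox9 made up 16.2 and 11.2. Without weights the sum was 32.6 in WT endocrine-high cells, against 42.1 in the WT epithelium. Markers of other cell types were also present, and none was at 0: mesenchyme (7 markers) summed to 7.64 in WT and 8.28 in KO, endothelium (6 markers) to 3.62 and 3.50, immune cells (5 markers) to 3.65 and 4.09, neural cells (4 markers) to 3.32 and 2.86, and mesothelium (2 markers) to 2.89 and 2.83. Without weights the mesenchyme sum was 2.99 in erythroid-high cells of WT, below the 7.54 of the WT epithelium. Single markers of other types reached the level of the epithelial ones, among them Nkx2-3, a gut mesenchyme factor, at 2.65 in WT and 2.95 in KO without weights, Upk3b, a mesothelial gene, at 2.23 and 2.17, and Sox10, a neural crest factor, at 1.66 and 1.04. Whether cells of these types lie among those kept was not tested. The 5 erythroid markers that the rule did not use summed to 3.67 in WT and 3.98 in KO. Without weights these sums were 3.72 and 3.90, against 11.8 and 13.4 in the erythroid-high cells of WT and KO.

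The cells left out divided differently between the libraries. Under 2000 genes lay 464 cells of WT (20.1%, 18.4 to 21.7%) and 57 of KO (9.47%, 7.25 to 12.1%). Of the cells above that minimum, 133 of 1850 in WT (7.19%, 6.05 to 8.46%) and 243 of 545 in KO (44.6%, 40.4 to 48.9%) were erythroid-high. Of those that remained, 269 of 1717 in WT (15.7%, 14.0 to 17.5%) and 34 of 302 in KO (11.3%, 7.92 to 15.4%) were endocrine-high. At the endocrine limit the last cell left out had a sum of 21.621 and the first kept 21.586, and 109 cells lay within 2 of it, so the class is a range and not a sharp type. At the erythroid limit the last cell kept had 14.861 and the first left out 15.16, with 30 cells within 2. Erythroid-high cells count in the total behind the share under 2000 genes and the share kept, so more of them in KO by itself lowers both. They do not enter the endocrine-high share, which is taken of the cells that remained.

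Against the endocrine-high cells of WT, and as a description of cells chosen from the same matrix, the epithelium had its highest unweighted ratios at Apoc1 (log2 1.46), Adamts9 (1.40), Gjc1 (1.36), Ptf1a (1.28), Sdc4 (1.23) and the histone genes Hist1h2ab (1.42), Hist1h2ap (1.29) and Hist1h3c (1.21). The 5 lowest were the 5 endocrine genes of the rule, down to -2.18 for Cryba2. Ptf1a scored 4.40 in WT epithelium and 1.82 in WT endocrine-high cells. Pdx1, required for pancreas formation and later for beta cells, and Nkx6-1, a trunk and beta-cell factor, hardly separated the classes, at -0.05 and -0.24.

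Ptf1a had the lowest ratio of the genes with a mean score of at least 0.5 in a library. The WT library had a weighted mean of 4.22 and the KO library 1.81 (log2 -1.22), and KO was below WT in all 10 bins of genes above 0. The WT bins ran from 3.38 to 5.38 and the KO bins from 0.28 to 3.14. Per cell, the WT median was 2.88 (10th to 90th percentile 0 to 10.5) and the KO median 0.70 (0 to 4.87), and 22.3% of KO cells lay above the WT median. Most cells thus kept a Ptf1a score in both libraries: it was above 0 in 75.3% of WT and 57.0% of KO cells after weighting, and in 69.1% and 67.5% without. The gene lies at chr2:19445663-19447501 (GRCm38.p6). How far the score reaches from the gene is not stated in the labels, and whether it takes in the deleted enhancer was not tested.

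**Figure D1:**
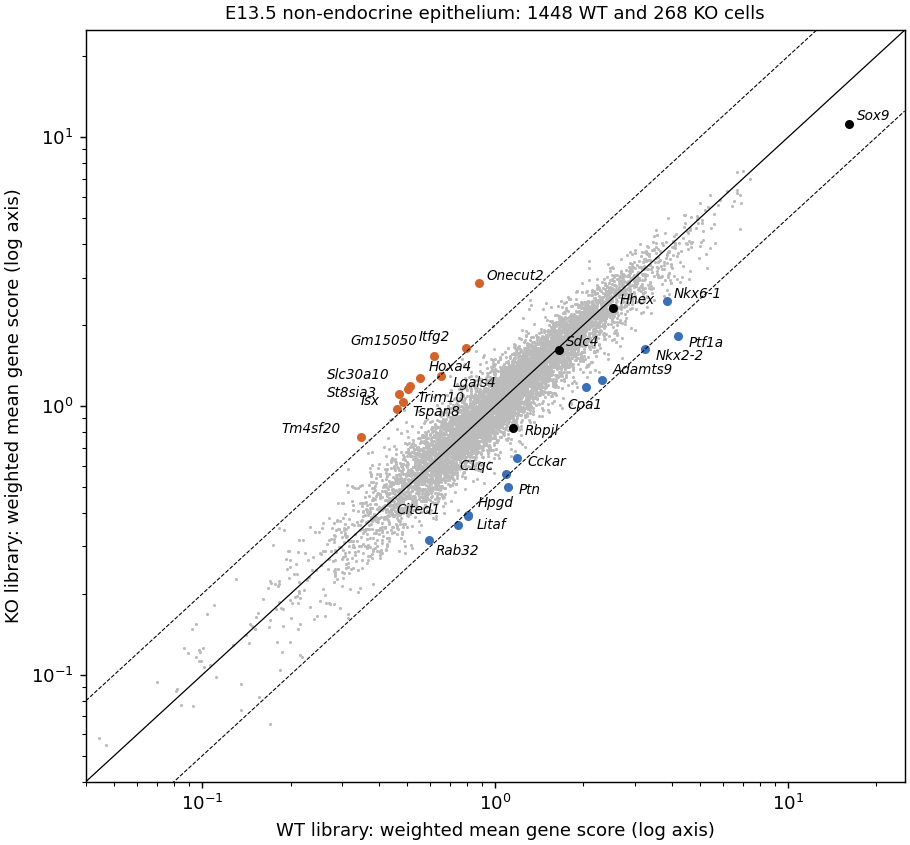
Weighted mean gene score of each of the 8229 genes in the 268 KO cells (y axis, log) against the 1448 WT cells (x axis, log) of the non-endocrine epithelium; the solid line marks equality and the dashed lines 2-fold. Ptf1a (4.22 in WT, 1.81 in KO) lies past the lower dashed line and Onecut2 (0.88 and 2.86) lies farthest past the upper one.

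Of the 8229 genes, 6 (0.0729%) were 2-fold or more lower in KO and 14 (0.17%) 2-fold or more higher. With a pseudocount of 0.5 added to each mean, which pulls low scores together, 1 gene was past 2-fold in each direction. Past 1.5-fold there were 106 lower (1.29%) and 96 higher (1.17%), and counts of list members below are read against these shares.

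Among 18 tip regulators, the transcription factors of acinar progenitors and their PTF1 partners, 1 was 1.5-fold or more lower (Ptf1a) and 0 were higher, and the list median was -0.22. Rbpjl had a mean of 1.15 in WT and 0.83 in KO (log2 -0.48), lower in 9 of 10 bins. Rbpj, which also carries Notch signals, was at -0.17, and the E proteins stood at -0.37 (Tcf4), -0.27 (Tcf12) and 0.03 (Tcf3). Mecom, a zinc-finger factor, went from 5.26 to 3.67 (-0.52) and was lower in 10 of 10 bins. Nr5a2, an acinar nuclear receptor, went from 3.45 to 2.74 (-0.33), and Xbp1, which drives the unfolded protein response, from 2.93 to 2.40 (-0.29). None of these reached 1.5-fold, although 12 of the 18 ratios were below 0. On the other side was Etv4, an ETS factor downstream of FGF signals, with 1.77 in WT and 2.55 in KO (0.52), higher in 10 of 10 bins. Gata4 was at 0.30, with 7 of 10 bins higher.

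The acinar products, enzymes and other secreted or surface proteins of acinar cells, had the lowest list median, -0.45 over the 13 of 42 genes that the matrix holds. Of the 13, 4 were 1.5-fold or more lower and 0 were higher, against 1.29% and 1.17% of all genes, and 10 ratios were below 0. Cckar, the receptor by which cholecystokinin drives enzyme secretion, had a mean of 1.18 in WT and 0.64 in KO (-0.89). Cpa1, a carboxypeptidase that also marks multipotent tips, had 2.04 and 1.18 (-0.79). Both were lower in at least 9 of the 10 bins. Serpini2 had 0.35 and 0.21 (-0.72). Cel, a bile salt-dependent lipase, was at -0.52, Clps, the colipase, at -0.45, and Ctrb1, a chymotrypsinogen, at -0.22. The members at or above 0 were Spink1 (0.07), a trypsin inhibitor, Cela1 (0.17), an elastase, and Tmed6 (0.29), a trafficking protein. Summed per cell, the 13 scores had a median of 13.5 in WT and 10.4 in KO, and 26.5% of KO cells lay above the WT median.

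The promoters of Cel, Cpa1 and Ptf1a are shown because the PTF1 complex is known for its E-box and TC-box and because the 3 genes were all lower in KO. Each run is the 250 bases before the start of the gene, read 5′ to 3′ on the gene's strand, from RefSeq on GRCm38.p6. Capitals mark the E-box word CACCTG and the TC-box word TGGGAA, each searched on both strands, so that CAGGTG and TTCCCA count as the same words. Cel is at chr2:28563404-28563653 on the minus strand, Cpa1 at chr6:30638968-30639217 on the plus strand and Ptf1a at chr2:19445413-19445662 on the plus strand.
Cel: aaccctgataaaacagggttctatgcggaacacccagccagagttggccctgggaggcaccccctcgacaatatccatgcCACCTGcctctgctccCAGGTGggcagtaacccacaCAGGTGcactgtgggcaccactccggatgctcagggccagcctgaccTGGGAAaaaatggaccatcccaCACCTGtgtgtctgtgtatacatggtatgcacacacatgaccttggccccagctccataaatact
Cpa1: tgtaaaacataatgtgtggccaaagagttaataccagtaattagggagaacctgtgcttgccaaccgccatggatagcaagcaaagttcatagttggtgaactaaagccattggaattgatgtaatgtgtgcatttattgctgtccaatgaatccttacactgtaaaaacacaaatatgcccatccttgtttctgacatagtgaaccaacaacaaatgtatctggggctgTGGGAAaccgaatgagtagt
Ptf1a: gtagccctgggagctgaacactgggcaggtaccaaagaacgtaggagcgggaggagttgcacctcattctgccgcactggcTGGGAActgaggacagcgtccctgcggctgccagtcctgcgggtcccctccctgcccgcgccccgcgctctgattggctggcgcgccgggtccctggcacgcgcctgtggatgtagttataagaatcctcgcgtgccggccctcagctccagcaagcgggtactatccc
The Cel promoter held 4 E-box words and 1 TC-box word, while Cpa1 and Ptf1a held 1 TC-box word each and no E-box word of these letters. In Cel and in Rbpjl a TC-box and an E-box word lay 22 bases apart, start to start, and in the same order. The 28 bases that span both words are given for Rbpjl, at chr2:164403090-164403117 on the plus strand, and for Cel, at chr2:28563463-28563490 on the minus strand. The Rbpjl stretch lies within an annotated transcript that begins farther upstream than the start used here.
Rbpjl: TGGGAAgcctacatctgcccagCAGGTG
Cel: TGGGAAaaaatggaccatcccaCACCTG

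Promoters were matched for 9 of the 13 acinar products and 12 of the 18 tip regulators. An E-box word was found in 5 of the 9 and in 3 of the 12, against 17.1% of all 27025 RefSeq promoters of that length, and a TC-box word in 6 of the 9 and 4 of the 12, against 21.5%. Both words were present in Cel and Prss2 among the acinar products and in Rbpjl, Rbpj and Xbp1 among the tip regulators, and in 3.87% of all promoters. Over the 82 matched genes that were 1.5-fold or more lower in KO, the shares were 13.4% for the E-box and 19.5% for the TC-box, and over all 6577 matched genes compared 13.6% and 20.3%. The lower genes as a set thus held these words about as often as all genes compared. A match is a run of letters and not a binding site.

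The factors of the progenitor state differed among themselves. Nkx2-2, a homeobox factor of progenitors and later of endocrine cells, had a mean of 3.24 in WT and 1.63 in KO (-0.99), lower in 10 of 10 bins. Its per-cell median was 2.52 in WT and 0.92 in KO. Nkx6-1 went from 3.86 to 2.45 (-0.65), Prox1, a homeobox factor of early pancreas and liver, from 2.59 to 1.73 (-0.58), and Sox9 from 16.2 to 11.2 (-0.53), each lower in 10 of 10 bins. Pdx1 (-0.12) and Hhex (-0.12), in contrast, lay inside the central 95% of all genes. The per-cell medians of Pdx1 were 1.69 in WT and 1.81 in KO. Hnf4a, a factor of gut and liver epithelium, was at 0.46, with 9 of 10 bins higher. Of the 19 progenitor factors compared, 2 were 1.5-fold or more lower, 1 was higher and the median was -0.21.

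Of 20 trunk and duct genes 3 were 1.5-fold or more lower: Pkd2, a cilium channel (-0.69), Cldn10, a tight-junction claudin (-0.68), and Jag1, a Notch ligand (1.86 in WT and 1.23 in KO, -0.59). The 1 higher gene was Tspan8, a tetraspanin of gut and duct epithelium, with 0.49 in WT and 1.03 in KO (1.09) and 10 of 10 bins higher. Krt19, a duct keratin, was at 0.49, and the list median was -0.19, or -0.10 without weights. Of 16 Notch genes 1 was 1.5-fold or more lower and 0 were higher, with a median of -0.23. The target genes Heyl and Nrarp were at -0.57 and -0.56 and the receptor Notch1 at -0.29, but Hes1, the target with the highest mean (7.39 in WT and 6.97 in KO), was at -0.08. Of 42 endocrine genes 3 were 1.5-fold or more lower and 0 higher (median -0.03). The lowest were Pcsk1n (-0.95) and Pcsk1 (-0.90), an inhibitor of prohormone convertase and the enzyme itself. Pcsk1n scored low, with means of 0.31 in WT and 0.16 in KO. It was above 0 in 10.8% of WT and 13.8% of KO cells without weights, close to the 10% limit for a gene to be compared. Neurog3, which starts the endocrine fate, had 1.94 in WT and 1.37 in KO (-0.51). The list holds the 5 endocrine genes by which cells were left out, and the other 37 genes had a median of 0.02. Sox11 was the highest, at 0.51.

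**Figure D2:**
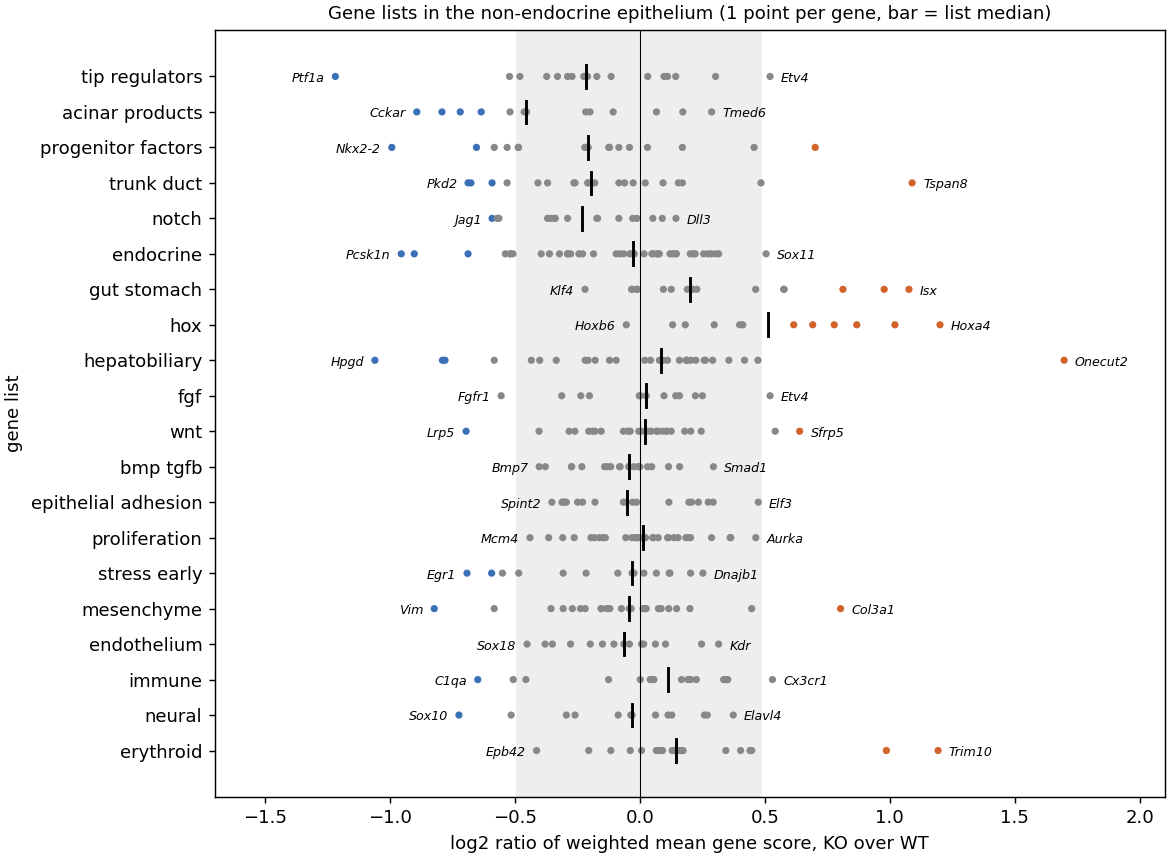
Log2 ratio of weighted mean gene score, KO over WT, for each gene of 20 lists (1 point per gene; black bar, list median; shaded, the central 95% of the 8229 genes, -0.49 to 0.49; blue and orange, 1.5-fold or more lower or higher). The acinar products have a median of -0.45 and the Hox genes a median of 0.51, while the FGF, Wnt, BMP, adhesion and proliferation lists are centred near 0.

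Onecut2, a factor of liver, bile duct and early endoderm, had the highest ratio of the genes compared. Its weighted mean was 0.88 in WT and 2.86 in KO (log2 1.70), higher in 10 of 10 bins. The WT bins ran from 0.63 to 1.10 and the KO bins from 2.14 to 5.53. Per cell, the median was 0.39 in WT (10th to 90th percentile 0 to 2.44) and 2.30 in KO (0 to 6.17), and 79.8% of KO cells lay above the WT median. The score was above 0 in 56.4% of WT and 80.8% of KO cells after weighting. The higher score was thus spread over most KO cells rather than held by a few.

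**Figure D3:**
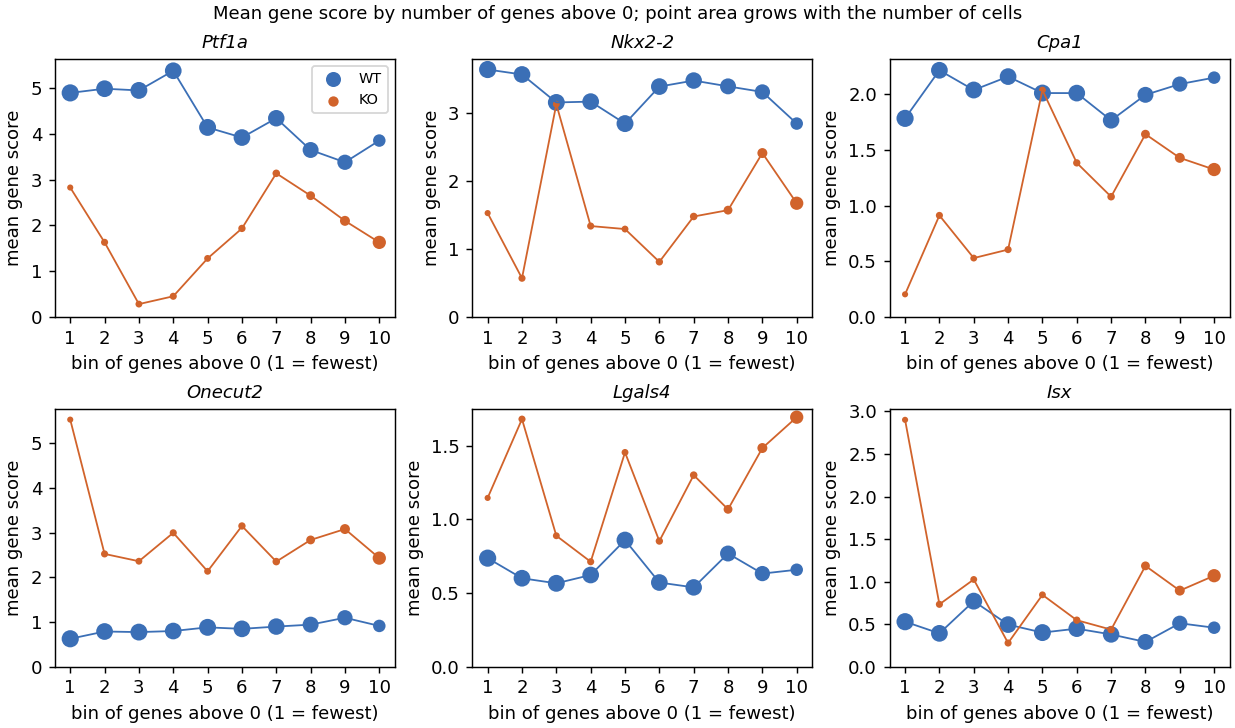
Mean gene score of 6 genes (y axis) in the WT and KO cells of each of 10 bins of the number of genes above 0 (x axis, 1 = fewest); point area grows with the number of cells, which is 7 to 92 for KO. Ptf1a is lower and Onecut2 higher in KO in every bin, while for Nkx2-2, Cpa1 and Isx the curves touch or cross in single bins.

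Gut and stomach genes had a list median of 0.20. Of 16 compared, 0 were 1.5-fold or more lower and 3 were higher, against 1.17% of all genes. Isx, an intestinal homeobox factor, had a mean of 0.46 in WT and 0.97 in KO (1.08), Lgals4, an intestinal galectin, 0.66 and 1.29 (0.98), and Tff1, a stomach trefoil peptide, 1.30 and 2.29 (0.81). Lgals4 was higher in 10 of 10 bins and the other 2 in 9. Shh, the gut hedgehog ligand that the pancreatic bud lacks, had 1.10 and 1.64 (0.58), and Klf5, a factor of gut epithelium, was also at 0.58. Cdx2, the main factor of intestinal identity, was only at 0.13 (2.33 and 2.55), and Klf4 at -0.22. Tm4sf20, a tetraspanning protein, and Slc30a10, a manganese exporter, are not in this list. Both are among the 10 highest genes, at 1.14 (0.35 and 0.77) and 1.22 (0.51 and 1.19). With the erythroid-high cells counted in, Tm4sf20 was at 0.88 and Slc30a10 at 1.77. The gut sum per cell had a median of 20.2 in WT and 24.9 in KO, its 90th percentile was 30.9 in WT and 41.8 in KO, and 62.1% of KO cells lay above the WT median, or 33.5% when the erythroid-high cells are counted in, with a list median of -0.32.

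Hox genes, which pattern the body axis, had the highest list median, 0.51 over 12 genes, with 6 at 1.5-fold or more higher and 0 lower. The higher ones lay in 2 clusters and included Hoxa4 (0.55 in WT and 1.27 in KO, 1.20), Hoxa3 (0.98 and 1.99, 1.02), Hoxa5 (0.81 and 1.38, 0.78), Hoxb3 (0.69) and Hoxb4 (0.62). The others compared ran from -0.05 for Hoxb6 to 0.41 for Hoxa7, with Hoxb2 at 0.30 and Hoxb5 at 0.40. Summed per cell over Hoxa3, Hoxa4 and Hoxa5, the median was 0.56 in WT and 2.57 in KO, and 66.5% of KO cells lay above the WT median. The 25th percentile of the sum was 0 in both libraries. Without the limit on erythroid genes, when the erythroid-high cells are counted in, the Hox median was -0.21. Mesenchyme also uses Hox genes: the mesenchyme list (25 genes) had a per-cell median of 23.8 in WT and 23.3 in KO and a median ratio of -0.04. Its ends were Vim (-0.82) and Col3a1 (0.80), and the 7 mesenchyme markers given above summed to 7.64 in WT and 8.28 in KO. Per cell, the sum of Hoxa3, Hoxa4 and Hoxa5 had a Spearman correlation with the mesenchyme list of 0.02 in WT and 0.12 in KO. The part of mesenchyme in the Hox values was not tested.

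**Figure D4:**
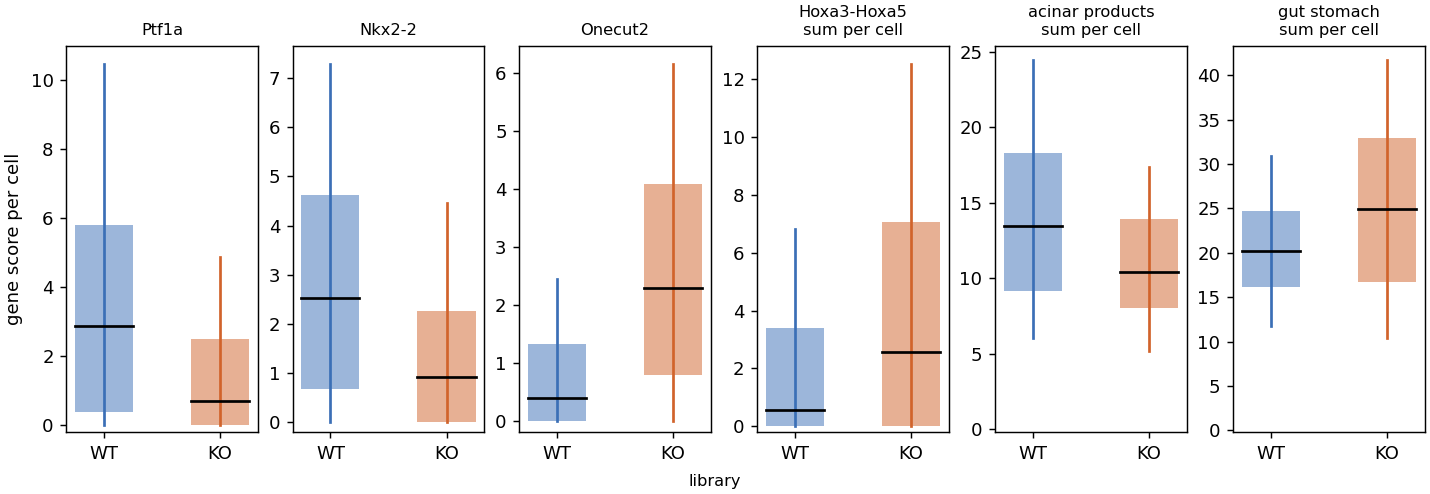
Gene score per cell (y axis) of 3 genes and 3 summed lists in the WT and KO cells of the epithelium, weighted to one spread of genes above 0; black lines are medians, boxes the middle 50% of cells and vertical lines the 10th to 90th percentile. The KO median is below the WT median for Ptf1a (0.70 and 2.88) and above it for Onecut2 (2.30 and 0.39), and the ranges overlap in every panel.

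Some of the genes past 1.5-fold lay side by side on the chromosome, with distances taken between the lower coordinates of the genes. The gene nearest before Onecut2, St8sia3, a sialyltransferase gene 86 kb away, had 0.47 in WT and 1.11 in KO (1.24). On the other side Fech, 117 kb away, was at 0.80 and Nars, 160 kb away, at 0.65, while Atp8b1, 189 kb away, was at -0.28. Around Hoxa4 the genes Hotairm1 (0.68), Hoxa3, Gm15050 (1.32) and Hoxa5 were all 1.5-fold or more higher within 31 kb, whereas Skap2 (331 kb, 0.14) and Hibadh (357 kb, 0.28) were not, and neither was Hoxa7 (26 kb, 0.41). Gm15050 lies within the span of Hoxa3, and reads of overlapping genes cannot be told apart in a score without strand. The nearest compared neighbours of Ptf1a, Etl4 at 465 kb, Bmi1 at 769 kb and Commd3 at 773 kb, were at -0.05, -0.29 and -0.22. With no compared gene closer, a change shared by genes next to Ptf1a could not be seen. The 7 genes compared from a list of its wider neighbourhood were all below 0 (median -0.13), and 0 were 1.5-fold or more lower. Of 4189 adjacent pairs of genes within 100 kb, 9 had both genes 1.5-fold or more higher, 5 of them in the Hoxa cluster, and 4 had both lower, among them C1qc with C1qa. Windows of neighbouring genes may share signal, so such pairs are not separate measurements.

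**Figure D5:**
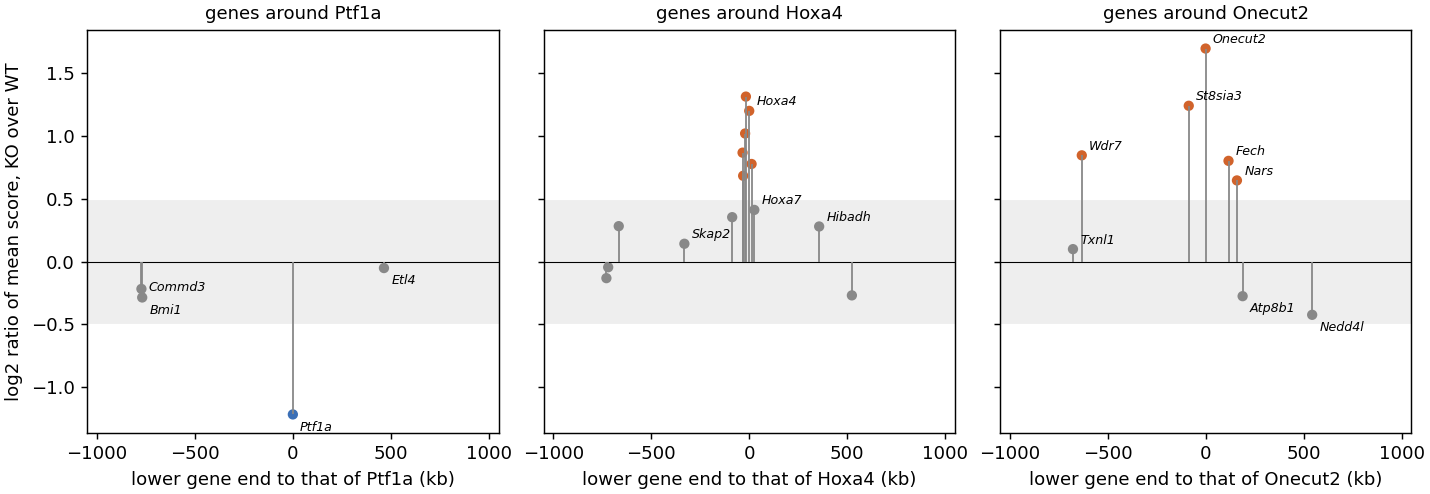
Log2 ratio of weighted mean gene score, KO over WT (y axis), of the genes compared around Ptf1a, Hoxa4 and Onecut2, by the distance between the lower coordinates of the genes (x axis, kb); shaded, the central 95% of all genes. Ptf1a is at -1.22, with its nearest compared neighbour, Etl4, 465 kb away. Genes next to Hoxa4 and Onecut2 share the direction of the central gene.

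Beyond Ptf1a and Nkx2-2, the 10 lowest genes were of mixed roles. Ptn, a heparin-binding growth factor, had 1.11 in WT and 0.50 in KO (-1.15), Hpgd, which breaks down prostaglandins, 0.81 and 0.39 (-1.06), Cited1, a transcriptional co-activator, 0.74 and 0.36 (-1.05), and Litaf, an endosomal membrane protein, 0.81 and 0.39 (-1.03). KO was lower in 10 of 10 bins for all 4. Adamts9, a secreted protease, had 2.31 and 1.25 (-0.88), C1qc, a complement chain of macrophages, 1.09 and 0.56 (-0.97), and Rab32, a small GTPase, 0.59 and 0.32 (-0.91). Among the 10 highest, Trim10, a gene of red-cell development, had 0.50 and 1.15 (1.19), and Itfg2 had 0.79 and 1.64 (1.05). Gypc, used by the rule, was at 0.99. Beside these, the 19 erythroid genes that the rule did not use had a median of 0.14 with 15 above 0 and 1 past 1.5-fold, and erythroid-high cells were 44.6% of the KO cells above the gene minimum against 7.19% in WT. Their part in the results was not tested.

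Signalling lists were centred near 0. The FGF list (13 genes) had a median of 0.03, the Wnt list (26) 0.02 and the BMP and TGF-beta list (21) -0.04, and epithelial adhesion (19) and proliferation (31) were at -0.05 and 0.01. Adhesion ran from Spint2 (-0.35) to Elf3 (0.47) and proliferation from Mcm4 (-0.44) to Aurka (0.46). The ends of the 3 signalling lists were Fgfr1 (-0.55) and Etv4 (0.52), Lrp5, a Wnt co-receptor (2.19 in WT and 1.35 in KO, -0.69), and Sfrp5, a secreted Wnt inhibitor (2.08 and 3.25, 0.64), and Bmp7 (-0.40) and Smad1 (0.29). The liver and bile duct list (30 genes) had a median of 0.09 with its ends far apart, from Hpgd to Onecut2, and the liver genes Hp and Gulo were at -0.79 and -0.78. The list of early stress genes (15) was at -0.03, with Egr1 lowest (-0.69).

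In the endocrine-high cells, 269 WT and 34 KO, the same genes were set side by side, weighted over 3 bins. Ptf1a had 1.78 in WT and 0.92 in KO (-0.96) and Nkx2-2 was again at -0.99. Of the 10 lowest and 10 highest genes of the epithelium, 7 and 6 kept their sign there. Onecut2 was at 0.71 and Isx at 0.86, whereas Hoxa4 was at -0.75 and Tspan8 at -1.22. The list medians were -0.75 for the Hox genes, 0.12 for acinar products and 0.07 for gut genes. The difference between the 2 classes was not tested.

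The same cell rule applied to the E10.5 libraries kept 607 WT and 521 KO cells. There, 9 of 8224 genes (0.109%) were 1.5-fold or more lower in KO and 8 (0.0973%) higher, and 95% of ratios lay between -0.30 and 0.27. Ptf1a had 2.51 in WT and 1.77 in KO (-0.50), outside that range and smaller than at E13.5. Other genes named above that lay outside it included Rab32 at -0.45, Hpgd at -0.34, Serpini2 at -0.33 and Pcsk1n at -0.32. On the higher side they included Cela1 and Sfrp5 at 0.29, Fech at 0.28 and Hotairm1 at 0.27. Cckar was at -0.30, Cpa1 at -0.17, Nkx2-2 at -0.23, Rbpjl at -0.03, Onecut2 at 0.16 and Hoxa4 at 0.09. Of the 10 genes lowest at E13.5, 9 had a ratio below 0 at E10.5, and of the 10 highest, 4 had one above 0. List medians at E10.5 ran from -0.11 to 0.05. The tissue dissected differed between the ages, so age and tissue cannot be told apart.

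Across single cells, the scores that differed between the libraries were weakly related within each. Ptf1a and the acinar sum had a Spearman correlation of 0.21 in both the 1448 WT and the 268 KO cells. Onecut2 and the gut sum were at -0.01 in WT and 0.32 in KO, and the sum of Hoxa3, Hoxa4 and Hoxa5 and the gut sum at 0.03 and 0.33. Onecut2 and Ptf1a were at 0.02 in each. The cells of a library share its depth, and the number of genes above 0 itself correlated with the gut sum at 0.02 in WT and 0.19 in KO and with the Hoxa sum at 0.30 and 0.24, so these are descriptions of sparse scores.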

How the data were processed

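Single-cell ATAC libraries of mouse embryonic pancreas were built with a 10x Genomics kit, per the labels' protocols, and mapped to mm10, per the submitters' processing notes. The deposited matrices hold a signal per gene and cell, scaled by the authors to a total of 10000 over 8269 genes. Which tool made the scores, over which window and for which genes is not given in the sources, and fragment depth is unknown. The RNA libraries were not used here. Cells were chosen by the rule given above, and 0 columns of other samples were present. WT and KO libraries shared 2 barcodes, 0 of them in the epithelium, and 7 barcodes with the E10.5 libraries. Without counts no doublet caller was run. An alternative without the top 10% of cells by genes above 0 stands in its place.

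Weights gave each library the mean of the 2 libraries' shares per bin, which corresponds to 1000 equally weighted WT and 220 KO cells. Ratios are log2 of KO over WT weighted mean score, with no pseudocount. Calculations used Python 3.11.15, numpy 2.4.6, pandas 2.3.3 and scipy 1.17.1 and were tested on simulated data. Gene positions are from RefSeq, GRCm38.p6, matched by symbol for 8156 genes.

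The members and gene lists were chosen with earlier results of these data known. Genes were picked for naming by a rule, of which the text prints a part: Ptf1a, the tip regulators, its neighbours, the 10 lowest and 10 highest genes with a mean of at least 0.5, the ends of each list, the 4 markers Sox9, Rbpjl, Sdc4 and Hhex, and the genes that separate the epithelium most from endocrine-high cells. Other genes of the lists were named after their values were seen. Some genes of the lists are not reported here.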

Additional observations from a re-analysis of the deposited data

Results flagged for a closer look

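Of the 20 genes with the lowest and highest ratios, 4 had KO and WT means 1.5-fold or more apart both in the epithelium and in the endocrine-high cells, in opposite directions. Hoxa4 was at 1.20 in the epithelium and at -0.75 in the endocrine-high cells, and Tspan8 at 1.09 and -1.22. C1qc was at -0.97 and 0.62, and Adamts9 at -0.88 and 0.90. Outside these 20, Hoxa3 (1.02 and -0.75), Hoxa5 (0.78 and -1.11), Hoxb3 (0.69 and -1.29), Hoxb4 (0.62 and -1.18) and Serpini2 (-0.72 and 1.02) were among the genes with opposite directions. The endocrine-high values rest on 34 KO cells, and the difference between the classes was not tested.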

How the results depend on the processing

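Other settings were applied to the 10 lowest and 10 highest genes, the list medians, the counts past 2-fold and the shares of cells kept and endocrine-high. They were also applied to the shares of KO cells above the WT median of the acinar and gut sums. The E10.5 ratio of Ptf1a and its ratio against endocrine-high cells had 1 alternative each. Ratios of other genes, list counts past 1.5-fold, ratios within endocrine-high cells and correlations were not recomputed. A ratio or count was held to have stayed when it moved by less than 1.5 times, a share when it stayed within its interval. Of 710 alternative values 664 stayed, 46 moved and 0 genes past 1.5-fold reversed, while the Hox and gut list medians turned below 0 without the erythroid limit (-0.21 and -0.32). Some of these alternatives could not move the value. Other limits on low genes leave the ratio of a single gene as it was, and the pseudocount leaves the per-cell shares as they were. The count of 664 therefore overstates how stable the values were. Without the erythroid limit, when erythroid-high cells join and make up much of the KO library, the moved values included -2.06 for Ptf1a, 154 genes 2-fold or more higher and 319 lower, and list medians of -1.01 for progenitor factors, -0.93 for trunk and duct, -0.76 for adhesion, -0.71 for BMP and TGF-beta and for endocrine genes, -0.70 for neural, -0.67 for endothelium, -0.62 for FGF, -0.59 for liver and bile duct, -0.21 for Hox and 1.16 for erythroid genes. The share of KO cells above the WT median was then 15.5% for the acinar sum and 33.5% for the gut sum. Onecut2 was at 0.88 there, Nkx2-2 at -1.77, and Hoxa4 (0.29), Isx (0.33), St8sia3 (0.37), Gm15050 (0.43), Tspan8 (0.44) and Itfg2 (0.57) were no longer past 1.5-fold. Some values held to have stayed also fell under 1.5-fold. Among them were Itfg2 at 0.53 with at least 3000 genes above 0, Cited1 at -0.53 with no such minimum and Rab32 at -0.42 with a pseudocount of 0.5. In the other settings Ptf1a ran from -1.33 to -1.03 and Onecut2 from 1.28 to 1.82.

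The counts past 2-fold and the share of cells kept also moved. The count of higher genes was 7 with at least 3000 genes above 0 and 1 with a pseudocount of 0.5. The count of lower genes was 21 with weights to the WT spread, 16 with no minimum of genes above 0, 3 and 11 with the top 5% and 25% of endocrine cells left out, and 1 with the pseudocount. The 1.5-fold counts, 96 and 106, were chosen after seeing the data. The epithelium made up 47.9% of WT cells with at least 3000 genes above 0, 77.9% with no minimum, 58.9% with an erythroid sum under 8 and 66.2% with no erythroid limit, and 51.2% of KO cells with no minimum and 83.6% with no erythroid limit. The endocrine-high share in KO was 7.71% without the erythroid limit. The causes were not tested. No paired analysis was possible because each genotype had 1 library. Fragment depth is unknown, so gene scores carry no interval, and genes with low scores in the 268 KO cells are the least certain.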

Other observations

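Genes in this section were named after their values were seen. Around Rbpjl the ratio differed from gene to gene: Slpi, a secreted protease inhibitor 49 kb before it, had a mean of 0.67 in WT and 0.40 in KO (log2 -0.74), Matn4, 14 kb before it, was at -0.49 and Rbpjl itself at -0.48, while Sdc4, 21 kb after it, was at -0.03. Beside Cpa1, the imprinted gene Mest, 94 kb away, was at -0.53. The adjacent imprinted genes Sgce and Peg10 were both 1.5-fold or more higher, at 0.43 and 0.69 for Sgce and 0.45 and 0.71 for Peg10. Farther from Onecut2, Wdr7 (632 kb) had 1.32 in WT and 2.38 in KO (0.85) and was higher in 10 of 10 bins, while Txnl1 just beyond it was at 0.10.

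Of the marker lists of other cell types, Vim, the intermediate filament of mesenchyme, had 1.81 in WT and 1.02 in KO (-0.82), Col3a1, a fibrillar collagen, 0.13 and 0.23 (0.80), and Sox10 1.66 and 1.01 (-0.72). Endothelial genes ran from Sox18 (-0.45) to Kdr (0.32) and immune genes from C1qa (-0.65) to Cx3cr1 (0.53). Medians by chromosome ran from -0.08 for the 279 genes on X to 0.07 for the 388 on chromosome 17.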
